A study of Mus musculus with 2 samples.

Results

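The 10 genes described here, Fos, Fosb, Junb, Egr1, Arc, Npas4, Nr4a1, Nr4a3, Ier2 and Dusp1, are immediate early genes, and they were picked by symbol from the 31252 gene rows of the deposited count matrix. All 10 were present and all passed the count minimum that 15246 genes passed. They were compared between 2 libraries of ventral midbrain RNA from 2-month-old mice on an incipient congenic C57BL/6 background, 1 labelled Ctrl and 1 labelled OE. Ctrl mice are Slc6a3-Cre, with Cre recombinase expressed from the gene of the dopamine transporter and so in dopaminergic (DA) neurons. OE mice are Slc6a3-Cre; CAG-S-COUP-TFII, and carry in addition the CAG-S-COUP-TFII allele, which Cre activates to make more COUP-TFII, an orphan nuclear receptor. In the breeding scheme of the study, the mothers passed a floxed Tfam allele and a ROSA26-tdTomato reporter to all littermates. The labels do not name these alleles for the sequenced mice, nor how many mice went into each library.

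Immediate early genes are the first genes that a neuron transcribes after a strong stimulus, before any new protein is made. Calcium and cyclic AMP activate CREB, which binds the cyclic AMP response element (CRE), and the ERK cascade acts through serum response factor and its partners at the CArG box. Most of the products are transcription factors that act on a later wave of genes, while others, such as Arc and Dusp1, act at the synapse or shut the signal off. Their mRNAs are short-lived, so their levels in brain tissue follow recent activity.

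The promoters of the members share one short motif. The RefSeq promoter table (GRCm38.p6, the build that the submitters name as mm10) held a window from 250 bases before to 50 bases after the transcription start for 7 of the 10 members, namely Fos, Fosb, Junb, Npas4, Nr4a1, Nr4a3 and Dusp1. All 7 windows held the CRE half-site TGACG on one strand or the other, against 20.8% of all 32851 windows. Counted per gene, in any of its windows, 23 of 38 other activity-regulated genes (60.5%) held it, against 23.0% of all 27025 genes. Only Dusp1 held a full CRE, TGACGTCA, which contains a half-site on each strand and stood in 1.79% of all windows. Below, Fos and Junb are shown because they stood higher in the library labelled OE, Nr4a1 for its 4 half-sites and Dusp1 for its full site. Each runs 5′ to 3′ along the gene's strand, with half-sites in capitals. The windows are chr12:85473640-85473939 (plus strand) for Fos, chr8:84978699-84978998 (minus strand) for Junb, chr15:101266596-101266895 (plus strand) for Nr4a1 and chr17:26508423-26508722 (minus strand) for Dusp1.
Fos: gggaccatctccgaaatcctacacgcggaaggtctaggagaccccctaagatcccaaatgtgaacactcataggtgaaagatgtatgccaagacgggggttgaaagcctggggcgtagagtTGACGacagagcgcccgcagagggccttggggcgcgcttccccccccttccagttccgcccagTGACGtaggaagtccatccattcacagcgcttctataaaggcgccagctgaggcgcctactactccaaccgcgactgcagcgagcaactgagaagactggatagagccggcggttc
Junb: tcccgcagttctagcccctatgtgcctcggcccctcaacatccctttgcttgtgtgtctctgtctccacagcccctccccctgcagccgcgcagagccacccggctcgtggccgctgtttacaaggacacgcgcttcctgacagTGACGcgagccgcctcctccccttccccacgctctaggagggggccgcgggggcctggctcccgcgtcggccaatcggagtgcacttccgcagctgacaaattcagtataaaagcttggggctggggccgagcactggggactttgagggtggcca
Nr4a1: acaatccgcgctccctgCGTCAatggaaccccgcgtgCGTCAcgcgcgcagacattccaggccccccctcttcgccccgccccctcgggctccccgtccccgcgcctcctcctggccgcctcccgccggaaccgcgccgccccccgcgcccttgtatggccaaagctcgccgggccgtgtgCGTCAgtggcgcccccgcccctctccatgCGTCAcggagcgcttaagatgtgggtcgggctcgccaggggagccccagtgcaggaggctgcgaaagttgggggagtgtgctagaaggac
Dusp1: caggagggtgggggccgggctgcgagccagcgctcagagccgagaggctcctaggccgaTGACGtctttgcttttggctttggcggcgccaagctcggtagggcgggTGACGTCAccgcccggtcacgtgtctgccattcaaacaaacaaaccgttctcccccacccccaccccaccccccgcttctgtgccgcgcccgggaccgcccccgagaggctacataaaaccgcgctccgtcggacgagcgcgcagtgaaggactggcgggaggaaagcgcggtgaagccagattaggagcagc

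In Fos the half-sites began at positions -129 and -66 from the transcription start, and the TATA motif TATAAA at -33. Junb had 1 half-site, at -106. Its TATAAA began at position 1 of the RefSeq transcript, while the GENCODE M21 gene starts 30 bases further on. In Nr4a1 the 4 half-sites lay on the other strand, at -233, -213, -69 and -40, and in Dusp1 the full CRE began at -143. The GENCODE gene starts further upstream for some members, at -12577 from the RefSeq start for Nr4a1, -53656 for Dusp1 and -345 for Npas4. Fosb had a half-site at -60, Npas4 2 of them at -179 and -169, and Nr4a3 4 between -231 and -147. TATAAA on either strand stood in 2 of the 7 windows and in 13.6% of all windows. The CArG box and the AP-1 site TGANTCA were in none of the 7 windows, against 1.63% and 7.81% of all windows, which says only that these letters lie outside them. A match is a run of letters and was not tested for binding.

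**Figure D1:**
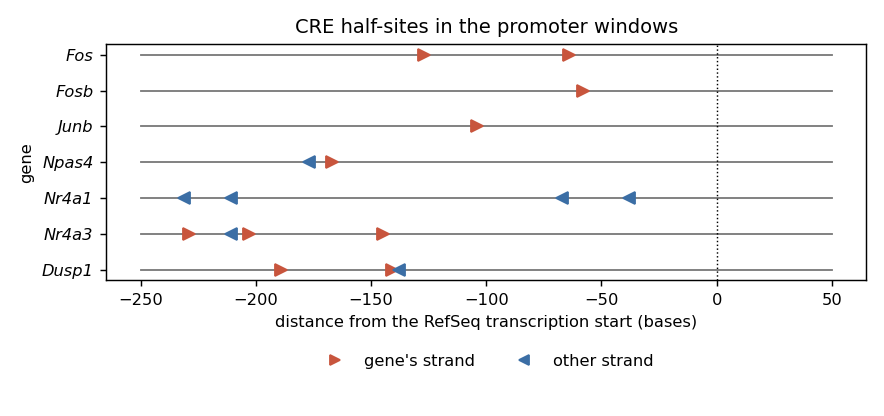
CRE half-sites in the promoter windows of 7 immediate early genes. The horizontal axis is the distance in bases from the RefSeq transcription start, lines span the windows, and triangles mark half-sites on the gene's strand or on the other strand. Each window held at least 1 half-site, and Nr4a1 and Nr4a3 held 4 each.

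The libraries differed in more than the label. The total was 16984336 counts for the library labelled Ctrl and 21326632 for that labelled OE. Nr2f2, the gene of COUP-TFII, was the planned check of the labels. It was counted 637 times under the Ctrl label and 377 times under the OE label. The log2 fold change was -1.07 (95% counting interval -1.26 to -0.88). By this value the overexpressed gene goes against the labels. However, the study measured its mRNA overexpression in isolated DA neurons, and these libraries are of ventral midbrain. This value therefore cannot decide whether the labels are right. Every direction below is that of the labels as given. All 13 markers of DA neurons were higher in the library labelled OE (median log2 fold change 1.29) and all 10 thalamus markers were lower (median -2.03). One of the DA markers is the aldehyde dehydrogenase gene Aldh1a1, with 6649 and 14705 counts (0.83, interval 0.79 to 0.87). The study reports that several genes of this family were repressed in OE mice, but its text does not name them. Whether the labels were exchanged was not tested. One label gives the cell type as DA neurons, but markers of oligodendrocytes were more abundant, with Mbp at 128974 and 139810 counts against 4955 and 15033 for Slc6a3. The RNA is thus of mixed tissue, in which fewer cells of a type and less RNA per cell cannot be told apart. With 1 library per group, no difference between genotypes has a replicate check and no test across mice was possible. Fold changes divide the library labelled OE by the one labelled Ctrl after TMM scaling, and their intervals cover counting error only.

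The immediate early genes had no common direction between the libraries. Junb and Fos were higher in the library labelled OE, Egr1 was lower, and the other 7 genes had intervals that included 0. By more than log2 0.2, the fold that the study used, 3 of the 10 were higher (Junb, Fos and Ier2) and 1 was lower (Egr1), while over all tested genes 17.9% were higher and 16.6% lower by as much. When the interval also had to exclude 0, 2 were higher and 1 was lower, against 9.9% and 9.16% of all tested genes. None changed by more than log2 1, which 1.53% of all tested genes did on the higher side and 1.28% on the lower. With only 10 genes, these counts lie near the background. Their median log2 fold change was -0.022 and that of all tested genes 0.0046, and 5 members lay on either side of 0. Together the 10 genes held 1713 counts under the Ctrl label and 2097 under the OE label, or 101 and 98.3 CPM, counts scaled to the library total.

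**Figure D2:**
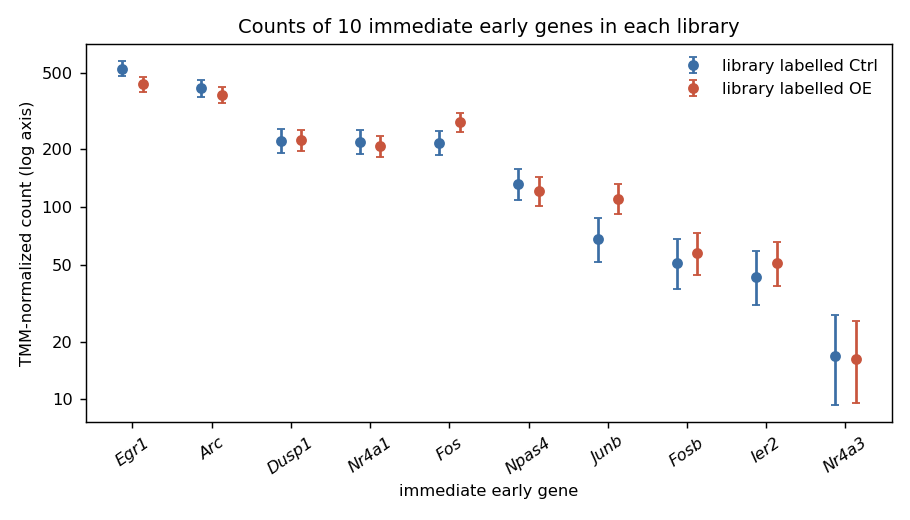
TMM-normalized counts of the 10 immediate early genes (vertical log axis) in the libraries labelled Ctrl and OE, ordered by the former. Points are single libraries and bars are exact 95% Poisson intervals of the count. The points of Junb and Fos are higher in the library labelled OE, that of Egr1 is lower, and the bars of the libraries overlap in Fos, narrowly, and in the other 7 genes.

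Among the AP-1 subunits, which pair as leucine zipper dimers on DNA, Junb had the largest difference of the members. It was counted 61 times under the Ctrl label and 123 times under the OE label, or 68.0 and 110 normalized counts. The log2 fold change was 0.69 (interval 0.24 to 1.17), and 3.26% of all tested genes had a higher one. Fos had 194 and 309 counts, or 216 and 277 normalized counts, a log2 fold change of 0.36 (interval 0.095 to 0.62) that 8.89% of tested genes exceeded. Fosb, a close relative of Fos whose splice form ΔFosB is long-lived, had 46 and 64 counts and a log2 fold change of 0.16 (interval -0.41 to 0.74), so a difference was not detectable at this depth. Junb and Fos thus stood higher in the same library, while the interval of Fosb held both 0 and the value of Fos.

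Egr1, a zinc finger factor bound to GC-rich promoters, was the only member lower by more than log2 0.2. It was counted 471 times under the Ctrl label and 486 times under the OE label, which are 525 and 436 normalized counts, and a log2 fold change of -0.27 (interval -0.45 to -0.082). Its interval lay below those of Junb and Fos without overlap, and since any scaling moves all genes alike, this order does not depend on the scaling. Arc, which encodes a capsid-forming synaptic protein that promotes removal of AMPA receptors, had 374 and 426 counts, with a log2 fold change of -0.13 (interval -0.33 to 0.079). Npas4, a bHLH-PAS factor that answers calcium entry in neurons, had 118 and 135 counts and changed by -0.12 (interval -0.49 to 0.25). Both had values below 0, but their intervals included it.

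The orphan nuclear receptors Nr4a1 (Nur77) and Nr4a3 (Nor1) showed no detectable difference. Nr4a1 stood at 196 and 231 counts, with a log2 fold change of -0.076 (interval -0.36 to 0.21). Nr4a3 was the lowest member, with 15 and 18 counts, and its interval, from -1.12 to 1.04, leaves room for a change of about 2-fold in either direction. The third receptor of the family is Nr4a2 (Nurr1). It is a transcription factor that DA neurons need and express constantly, and it stood at 617 and 1329 counts, with a log2 fold change of 0.79 (interval 0.65 to 0.93). This interval lay above that of Nr4a1 and within that of Nr4a3. The DA marker Slc6a3 moved in the same direction, by 1.29 (interval 1.24 to 1.33), and its part in the difference of Nr4a2 was not tested.

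Of the remaining members, Dusp1, a phosphatase that switches off MAP kinases, had 199 and 248 counts and the value nearest 0, a log2 fold change of 0.0043 (interval -0.27 to 0.28). Ier2, a small nuclear protein, had 39 and 57 counts and passed log2 0.2 with 0.23, but its interval from -0.38 to 0.86 included 0. A difference in Ier2 was therefore not detectable at this depth.

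**Figure D3:**
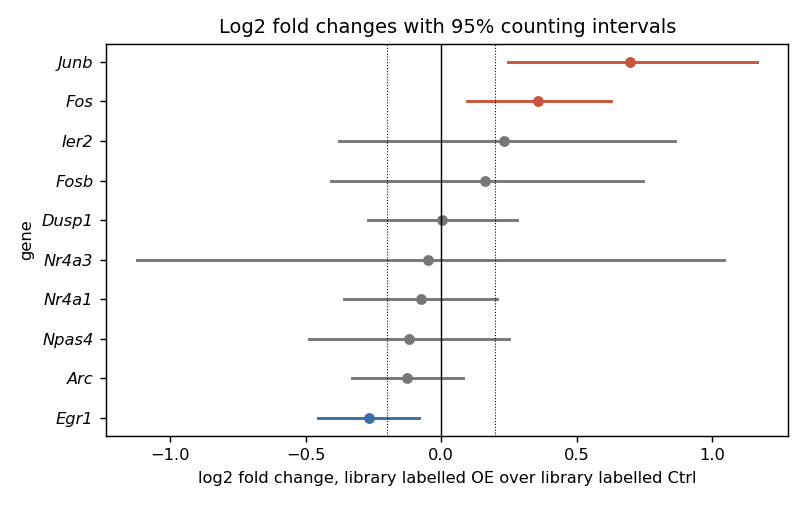
Log2 fold changes of the 10 immediate early genes, library labelled OE over library labelled Ctrl, with 95% counting intervals. Dotted lines mark 0.2 in each direction. The intervals of Junb and Fos lie above 0, that of Egr1 lies below it, and the other 7 cross it.

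Per transcript length, the members spanned a wide range of levels. In CPM per kilobase, Arc stood at 7.21 under the Ctrl label and 6.54 under the OE label, Egr1 at 6.18 and 5.08, Dusp1 at 5.89 and 5.84, Fos at 5.42 and 6.87, and Nr4a1 at 4.52 and 4.24. Junb at 1.99 and 3.19, Npas4 at 1.92 and 1.75 and Ier2 at 1.51 and 1.76 formed a lower tier, with Fosb at 0.716 and 0.793 and Nr4a3 at 0.154 and 0.148 below them. Fos passed from the fourth place to the first between the libraries, but in the library labelled OE its exact Poisson interval (6.13 to 7.68) overlapped that of Arc (5.93 to 7.19). Junb, Npas4 and Ier2 had overlapping intervals in the library labelled Ctrl. In the library labelled OE, Junb (2.65 to 3.80) lay above Npas4 (1.47 to 2.07) and Ier2 (1.33 to 2.28).

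**Figure D4:**
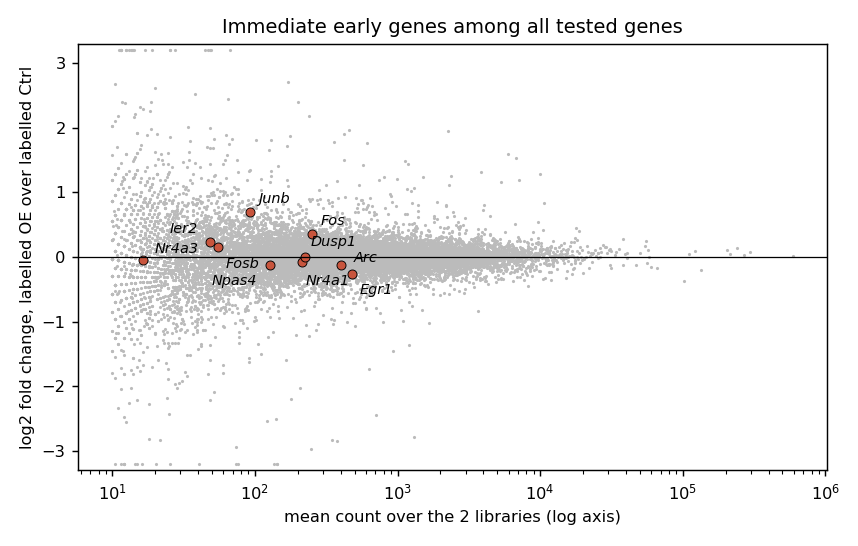
Log2 fold change (OE over Ctrl by label) against the mean count over both libraries (log axis), for all 15246 tested genes (grey, values past 3.2 drawn at 3.2) and the 10 immediate early genes (named). Junb is the highest and Egr1 the lowest member, and the spread of all genes is widest where counts are low.

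Junb and Ier2 have a single exon and short, GC-rich transcripts, of 1809 and 1522 bases with 62.6% and 60.9% GC. Length and GC content moved with the fold changes over all genes. When the tested genes were cut into 5 equal groups, the median log2 fold change of the shortest was 0.075 and 26.1% were higher by more than log2 0.2, while the median of the longest was -0.041. In the group of highest GC content, which also holds Egr1, Arc, Npas4 and Nr4a1, the median was 0.036. After subtraction of the median of its group, Junb kept 0.62 for length and 0.66 for GC content, and Fos 0.34 and 0.35. Ier2 came to 0.157 and 0.196, both under the threshold of log2 0.2, which left 2 members higher in each case. These values were added after the data were seen.

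A further 50 activity-regulated genes were compiled from general knowledge. This list, like the others here, was chosen with earlier results of these data known. Of its genes, 47 were tested. Of these, 24 were higher by more than log2 0.2 in the library labelled OE and 4 were lower, with a median of 0.23. These are 51.1% and 8.51% of the list, beside 17.9% and 16.6% of all tested genes. With an interval that excluded 0, 15 were higher and 3 lower, where all tested genes had 9.9% and 9.16%. Arl4d, a small GTPase of the Arf family, had 171 and 459 counts (1.11, interval 0.85 to 1.37). Csrnp1 (0.83), the kinase Pim1 (0.74) and the salt-inducible kinase Sik1 (0.50) were also higher, and so were Btg2 (0.47), an antiproliferative factor, and Nr4a2 as above. All 5 of these intervals lay above 0. At lower counts, Dusp5 had 6 and 23 (1.56, interval 0.29 to 3.21) and Cebpd 12 and 38 (1.32, interval 0.38 to 2.42).

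In the families of the members, Jund, an AP-1 subunit that most cells express constantly, had the same log2 fold change as Junb, 0.69, with a narrower interval (0.51 to 0.88). Jun had 435 and 579 counts (0.099, interval -0.083 to 0.28) and Fosl2 159 and 176 (-0.17, interval -0.48 to 0.15), and neither difference was detectable. Of the EGR family, Egr3 had 49 and 52 counts (-0.23, interval -0.82 to 0.37), while Egr2 with 2 and 3 counts and Egr4 with 1 and 6 were too low for a fold change. Klf4 changed by 0.29 (interval -0.061 to 0.65).

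Lower in the library labelled OE were Nptx2, a pentraxin secreted at excitatory synapses, with 142 and 69 counts (-1.35, interval -1.79 to -0.93), and Dusp6, an ERK phosphatase, with 429 and 382 (-0.48, interval -0.68 to -0.28). Atf3 was lower as well, but with only 17 and 7 counts (-1.52, interval -3.11 to -0.25). The intervals of Nrn1 (-0.18) and Fbxo33 (-0.13) also lay below 0, and that of Dusp4 (-0.17) included it. Among secreted, synaptic and enzyme effectors, 7 of 11 were higher by more than log2 0.2 and 1 was lower. Over all tested genes, 17.9% were higher and 16.6% lower by as much. Only 2 of the 7 had an interval above 0, against 9.9% of all tested genes. These were the 2 with the most counts, Vgf, a neuropeptide precursor (0.40, interval 0.31 to 0.48), and Scg2, a granin of secretory granules (0.24, interval 0.21 to 0.27). The 12 markers of neurons in general (pan-neuronal) had a median of 0.12, and the part of neuron content in these 2 values was not tested. Homer1 (0.069, interval -0.13 to 0.27), Bdnf (0.022, interval -0.15 to 0.19) and Per1 (0.098, interval -0.037 to 0.23), a clock gene, were without a detectable difference.

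Of 35 genes that act before the members, in the CREB, SRF, MEF2 and ERK pathways, 34 were tested. By more than log2 0.2, 5 were higher and 4 lower, and 25 stayed within it, with a median of -0.073. These are 14.7% and 11.8% of the list, both below the 17.9% and 16.6% of all tested genes. Creb1 (-0.16, interval -0.27 to -0.047), Srf (-0.12, interval -0.34 to 0.10), Elk1 (0.012), Camk4 (-0.11) and Mapk3 (-0.0034) all lay within log2 0.2. The largest differences were those of Mef2c, with 561 and 382 counts (-0.87, interval -1.06 to -0.68), and Camk2a, the forebrain-rich kinase subunit, with 4298 and 3007 (-0.83, interval -0.90 to -0.76). On the higher side, the ERK-activated kinases Rps6ka3 (0.25, interval -0.046 to 0.55) and Rps6ka2 (0.24, interval 0.11 to 0.38) had the largest values. The thalamus marker Tcf7l2 went from 2204 to 398 counts in the same direction as Camk2a, Mef2c and Nptx2, and its part in these differences was not tested.

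**Figure D5:**
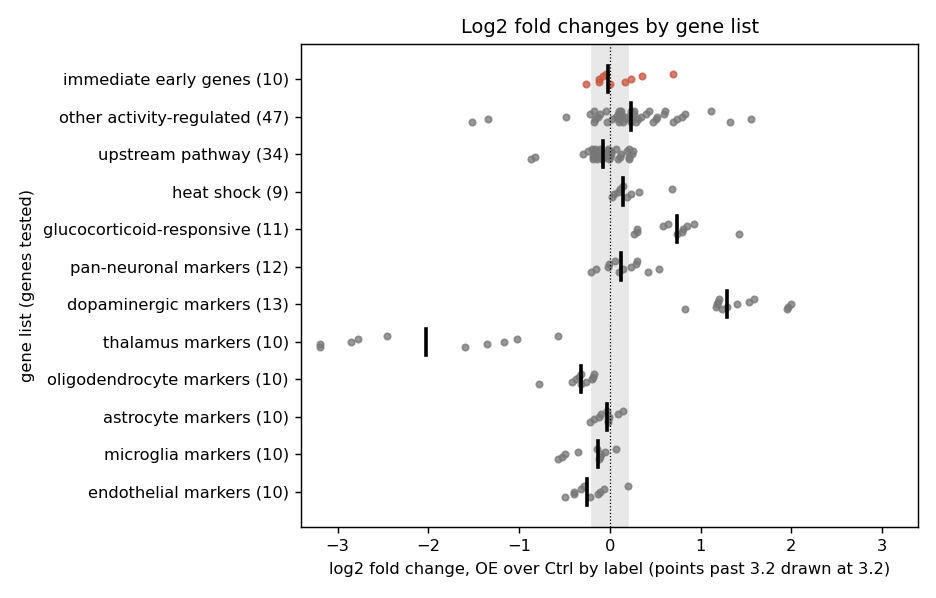
Log2 fold changes, library labelled OE over library labelled Ctrl, by gene list. Each point is a tested gene, black bars are list medians, the grey band spans 0.2 in each direction and the dotted line is the median of all tested genes. The immediate early genes centre on -0.022, the other activity-regulated genes on 0.23, DA markers on 1.29 and thalamus markers on -2.03.

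Scaled to the summed counts of 12 pan-neuronal markers, the median of all tested genes moved to -0.14 and the members moved with it. Junb stood at 0.55 (interval 0.10 to 1.02), Fos at 0.21 (interval -0.050 to 0.48) and Egr1 at -0.41 (interval -0.60 to -0.23). Arc then stood at -0.27 (interval -0.47 to -0.066). The interval of Fos thus included 0 and that of Arc no longer did. Under TMM scaling, pan-neuronal markers themselves had a median log2 fold change of 0.12. By more than log2 0.2, 5 of 12 were higher and 1 was lower, beside 17.9% and 16.6% of all tested genes.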

How the data were processed

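RNA of the ventral midbrain was measured in 2 libraries (TruSeq Stranded mRNA, paired reads of 50 bases), which a company sequenced and analysed. The authors deposited RSEM expected counts, estimated reads per gene without scaling, for 31252 gene rows, of which 95.4% of values are whole. The build is mm10 per the labels, and the aligner and annotation are not given in the sources used here. Columns were assigned by the number that they share with the sample titles. Depth was 16984336 and 21326632 counts.

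Counts were scaled by TMM (edgeR 4.0.16, R 4.3.3). A pseudocount of 0.5 normalized counts entered each log2 fold change, and the 15246 genes tested averaged at least 10 counts. Counts were rounded for exact 95% Clopper-Pearson intervals on the split between libraries and Poisson intervals of levels (scipy 1.17.1). These cover counting error only. They were run on simulated Poisson counts without variation between mice or dissections, which checks the computation only. Members had 15 to 486 counts. With 1 library per group no p-value was computed, and the count test of edgeR was not run.

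The members and lists were chosen with earlier results of these data known. Named genes are all members, Nr2f2, fixed genes of each list, the 6 highest and 6 lowest other activity-regulated genes and the 2 highest and 2 lowest upstream genes with at least 50 counts in both libraries, and the 2 most abundant markers of each list, of which only those a result touches are given. Of the fixed genes, 1 is not reported here. Vgf, Scg2, Zbtb16, Bag3, Atf3, Dusp5 and Cebpd were named after their values were seen. Lengths and GC content are those of the longest protein-coding transcript in GENCODE M21 and were found for 87.9% of tested genes. Alternatives were total counts, the upper quartile, DESeq2 size factors (1.42.0), pan-neuronal scaling, a pseudocount of 5, other minimums and thresholds, and, added after seeing the data, centring by length or GC content.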

Additional observations from a re-analysis of the deposited data

How the results depend on the processing

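No paired analysis was possible because there is only 1 library on either side, and no replicate could be left out. Of the fold changes of Nr2f2 and the 10 members and the medians of the members and of the other activity-regulated genes, each stayed within its counting interval (for a median, the median bounds of its genes) under every alternative run for it. Nr2f2 ranged from -1.21 to -1.05, Junb from 0.55 to 0.71, Fos from 0.21 to 0.37, Egr1 from -0.41 to -0.25, the members' median from -0.16 to -0.0087 and that of the other activity-regulated genes from 0.083 to 0.24. Pan-neuronal scaling lowered all values by 0.14. It left 2 members higher and 4 lower by more than log2 0.2, 14 other activity-regulated genes higher and 9 lower, and 0 upstream genes higher and 18 lower. Over all tested genes, 9.36% were then higher and 36.9% lower, so that 20.2% of those past log2 0.2 were higher, against 51.8%.

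Counts also moved where fewer genes could pass. With a mean of at least 100 counts, 1 member was higher (Fos) and 1 lower (Egr1), and 14 other activity-regulated genes were higher and 2 lower. The share over all genes with that minimum was not computed. With an interval that excluded 0, 15 other activity-regulated genes and 3 upstream genes were higher, against 9.9% of all tested genes. Past log2 1, 0 members and 0 upstream genes were higher or lower, and 3 other activity-regulated genes were higher and 2 lower. Of all tested genes, 1.53% were higher and 1.28% lower by as much. The 5 upstream genes on the higher side lay close to log2 0.2, and 2 remained with total counts and 3 after centring by GC content. In these 2 settings, 16.6% of all tested genes and 15.8% of those with a GC value were higher. Depth limits Nr4a3, Ier2 and Fosb most, whose intervals span over 1 log2 unit.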

Other observations

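Glucocorticoid-responsive genes, which stress hormones raise in brain, moved further than the immediate early genes. All 11 of the list were higher by more than log2 0.2 in the library labelled OE, against 17.9% of all tested genes, with a median of 0.74. For 10 of the 11 the interval lay above 0. The list was chosen with earlier results of these data known, and the part of tissue content in its values was not tested. Zbtb16, a zinc finger factor, had the largest value, from 265 counts under the Ctrl label to 884 under the OE label (1.42, interval 1.23 to 1.63). The kinase Sgk1 had 2555 and 5554 counts (0.81, interval 0.74 to 0.88), the glucocorticoid receptor chaperone Fkbp5 had 388 and 805 (0.74, interval 0.56 to 0.92), and Tsc22d3 had 2963 and 4425 (0.27, interval 0.20 to 0.33). By the labels, these genes and Junb and Fos were higher in the same library, in which Nr2f2 was lower. Egr1 was also lower there, and the intervals of the other 7 members included 0. A link between the glucocorticoid-responsive genes and the immediate early genes was not tested.

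Of 9 heat shock genes, 3 passed log2 0.2 on the higher side and 0 on the lower, with a median of 0.15, where 17.9% and 16.6% of all tested genes did. The co-chaperone Bag3 had the largest value (0.68, interval 0.38 to 0.99). The near-identical genes Hspa1a (0.018) and Hspa1b (0.32) share reads, so their split is uncertain, and both intervals included 0. Of the markers of other tissue, those of cortex and hippocampus had 2 of 8 tested genes higher and 2 lower, and those of hypothalamus 3 of 7 higher and 4 lower. Oligodendrocyte markers were lower in 7 of 10, endothelial in 6 of 10, microglia in 4 of 10 and astrocyte in 1 of 10, and 0 of them were higher by as much, where 16.6% of all tested genes were lower and 17.9% higher. Of 4 blood markers, 1 was higher. The part of these cell types in the values of the immediate early genes was not tested.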
